A study of Mus musculus with 24 samples.

Results

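The genes described here are 10 regulators of mitochondrial biogenesis: the coactivators Ppargc1a, Ppargc1b and Pprc1, the nuclear receptors Esrra, Ppara and Ppard, the nuclear respiratory factors Nrf1 and Gabpa, and the mitochondrial transcription factors Tfam and Tfb2m. They were taken by name from the deposited gene table, where all 10 were found among 24043 genes. Levels were measured by RNA-seq in C2C12 cells, an established mouse myoblast line that proliferates in rich medium and fuses into myotubes when serum is lowered. Cells in growth medium (GM) were kept in DMEM with 10% fetal bovine serum and below confluence, and cells in differentiation medium (DM) in DMEM with 2% horse serum and ITS, an insulin, transferrin and selenium supplement; the length of the differentiation is not given in the sources used here. Each medium was used at 21% oxygen (normoxia) and at 2% oxygen (hypoxia), and no group carried a genetic change that the labels name. Each of the 4 groups had 2 RNA-seq libraries, A and B, named as biological replicates of this 1 line. The H3K27me3 and input libraries of the series are not analysed here.

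Mitochondria are built from proteins encoded in the nucleus and in the small mitochondrial genome. The coactivators of the PGC-1 family bind no DNA themselves. They dock on estrogen-related receptors, PPARs and the nuclear respiratory factors, which in turn switch on genes of respiration and fatty acid oxidation. Nrf1 and Gabpa are known to act on the promoters of Tfam and Tfb2m, whose products enter the mitochondrion, pack its DNA and start its transcription. In muscle this pathway is known for its response to exercise and for the rise of oxidative capacity as myoblasts become myotubes.

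Ppargc1b, Tfam and Tfb2m all rose when normoxic cells were moved to DM, by 1.86-fold, 1.87-fold and 2.06-fold in the ratio of mean FPKM, and all 3 were lower in hypoxic than in normoxic DM. Ppargc1a, below 1 FPKM throughout, was also highest in normoxic DM. Ppard did the opposite, and Nrf1 and Gabpa passed the test in no comparison. None of the 8 regulators that could be tested was called between hypoxic DM and hypoxic GM, against 40.9% of all genes tested, and 3 were called when hypoxic DM A was left out.

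Tfam and Tfb2m are the 2 mitochondrial transcription factors among the regulators, and Ppargc1a is the coactivator with the lowest level. Their promoter windows are shown so that the values can be read beside the sequence. Each runs from 250 bases before to 50 bases after the start site, 5′ to 3′ along the gene, and comes from RefSeq on GRCm38.p6. The authors' files name mm9, so these coordinates belong to GRCm38.p6 only. All 3 genes lie on the minus strand: Tfam at chr10:71237995-71238294, Tfb2m at chr1:179546227-179546526 and Ppargc1a at chr5:51567676-51567975. Capitals mark the motif matches described next.
Tfam: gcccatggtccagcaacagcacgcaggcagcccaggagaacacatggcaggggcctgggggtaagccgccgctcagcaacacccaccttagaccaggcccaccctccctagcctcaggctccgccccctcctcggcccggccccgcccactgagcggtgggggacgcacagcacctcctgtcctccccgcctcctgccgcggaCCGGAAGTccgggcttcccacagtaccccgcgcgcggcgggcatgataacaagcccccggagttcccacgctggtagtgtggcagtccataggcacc
Tfb2m: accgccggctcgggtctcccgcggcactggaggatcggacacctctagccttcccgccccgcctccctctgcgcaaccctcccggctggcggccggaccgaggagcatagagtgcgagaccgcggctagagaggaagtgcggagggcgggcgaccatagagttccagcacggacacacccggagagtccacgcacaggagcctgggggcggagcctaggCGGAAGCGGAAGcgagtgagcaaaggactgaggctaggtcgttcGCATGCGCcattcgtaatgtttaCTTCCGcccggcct
Ppargc1a: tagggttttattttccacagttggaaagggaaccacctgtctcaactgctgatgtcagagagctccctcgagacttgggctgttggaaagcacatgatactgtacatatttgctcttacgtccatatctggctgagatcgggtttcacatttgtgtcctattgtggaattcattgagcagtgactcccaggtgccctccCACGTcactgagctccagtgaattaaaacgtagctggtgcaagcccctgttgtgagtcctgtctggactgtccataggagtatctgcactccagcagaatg

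Motifs were searched on both strands of 32851 windows of 300 bases, with the first base after the start counted as position 1. A window was found for 9 of the 10 regulators. The GABPA motif CCGGAAGT was present in 3.89% of all windows and in 1 of the 9, Tfam, where it began at position -47. The ETS core CGGAAG, which lies inside that motif, was present in 16.9% of windows and in 4 of the 9: Tfam, Tfb2m, Gabpa and Ppard. In Tfb2m it began at -31 and -25, and at 37 on the opposite strand. The palindromic NRF1 motif was present in 4.6% of windows and in that of Ppara only, and a shorter form, GCATGCGC, which can overlap it, in 2.71% and in 3 of the 9: Tfb2m at position 14, Esrra and Ppara. The hypoxia response core ACGTG was present in 19.6% of windows and in 2 of the 9, at -51 on the opposite strand in Ppargc1a and in Ppard. The ERR motif AAGGTCA, in 4.72% of windows, and the E-box CACGTG, in 7.15% and containing ACGTG, matched in none of the 9. CGGAAG and GCATGCGC were added after the first search. The 3 windows differed in base composition, with 70.3% G and C in Tfam, 67.3% in Tfb2m and 48.7% in Ppargc1a. These are matches of letters in 1 window per gene, or 2 for Nrf1.

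Values are FPKM (fragments scaled to transcript length and to the mapped fragments of the library) as deposited. Fold changes from the model are differences of log2(FPKM + 1), which understate changes of low genes, with adjusted p from limma after Benjamini-Hochberg adjustment over the 12389 genes whose mean reached 1 FPKM in any group; 0.05 was the threshold and tests were two-sided. Summed FPKM was 480018 to 534167 per library, and relative depth, estimated from whole-fragment steps, ranged from 0.633 to 1, so the shallowest library was hypoxic DM B and the deepest hypoxic DM A. Those 2 libraries also differed most: 613 genes differed over 2-fold between them, against 56 to 71 between replicates of the other groups. Summed proliferation markers were 28.9 FPKM in hypoxic DM A and 145.8 in hypoxic DM B. In the other groups they were 155 and 171 in normoxic GM, 94.0 and 83.0 in hypoxic GM, and 33.4 and 35.2 in normoxic DM. Summed myotube markers (5 genes: Myog, Ckm, Myh3, Acta1 and Tmem8c) were 22.5 to 29.3 FPKM in normoxic GM, 6050 to 6077 in normoxic DM, 2.39 to 3.02 in hypoxic GM and 8.73 to 14.8 in hypoxic DM. In hypoxic differentiation 4 of these 5 markers rose (median log2 difference 0.72), to sums below those of normoxic GM. Summed myoblast markers (4 genes: Myod1, Myf5, Des and Cdh15) were 387 to 465, 765 to 778, 107 to 114 and 56.4 to 85.8 FPKM in the same order. In normoxic differentiation 2 of these 4 rose and 2 were not called. Adipocyte markers summed to at most 1.18 FPKM, with 3 of 6 listed at 0 in every library. Osteoblast markers summed to 94.2 and 77.0 FPKM in normoxic DM and 0.984 to 7.71 elsewhere, with 3 of 5 under 1 FPKM in every library. Of the 2 osteoblast markers tested, 1 rose and 1 fell in normoxic differentiation, so the sum does not describe the set. The part of the differentiation state in any result below was not tested. In bulk RNA, fewer cells of a type and less RNA per cell cannot be told apart.

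Ppargc1a encodes PGC-1α, the coactivator induced by exercise and cold. Its FPKM were 0.0891 and 0.0841 in normoxic GM, 0.0154 and 0.00816 in hypoxic GM, 0.816 and 0.578 in normoxic DM, and 0.0275 and 0.0761 in hypoxic DM. Normoxic DM stood above all other libraries and hypoxic GM below all others, with no overlap between groups except that the hypoxic DM values lie close to those of normoxic GM. No group reached 1 FPKM, so the gene was not among those tested. The fragments behind these values were recovered within 0.197 of a whole number: 9 and 11 in normoxic GM, 2 and 1 in hypoxic GM, 81 and 72 in normoxic DM, and 4 and 7 in hypoxic DM. Per unit of depth, normoxic DM held 7.92 times as many as normoxic GM (95% exact interval 4.95 to 13.3) and 14.8 times as many as hypoxic DM (8.02 to 30.2), and normoxic GM held 7.24 times as many as hypoxic GM (2.15 to 38). Hypoxic DM held 3.89 times as many as hypoxic GM (1.03 to 21.7). These intervals cover counting error only, and both ratios to hypoxic GM rest on its 3 fragments. Without the filter the gene passed in limma in normoxic differentiation (0.64, adjusted p = 0.00053) and with hypoxia in DM (-0.69, adjusted p = 0.000398). With a pseudocount of 0.1, chosen after seeing the data, these were 2.08 (adjusted p = 0.000539) and -2.40 (adjusted p = 0.000294). In hypoxia the step from GM to DM did not pass (adjusted p = 0.597 with the pseudocount of 1, 0.226 with 0.1). Hypoxia in GM did not pass with either (-0.10, adjusted p = 0.32, and -0.74, adjusted p = 0.0559), but passed with a pseudocount of 0.01 (-2.17, adjusted p = 0.0275). The interaction passed with pseudocounts of 1 (-0.58, adjusted p = 0.00466) and 0.1 (-1.66, adjusted p = 0.00853), but not with 0.01 (-1.45, adjusted p = 0.185). Both of these results thus depend on the pseudocount.

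Ppargc1b encodes PGC-1β, the related coactivator that sets basal mitochondrial content and works with estrogen-related receptors. Its FPKM were 1.65 and 2.29 in normoxic GM, 0.645 and 0.579 in hypoxic GM, 3.95 and 3.36 in normoxic DM, and 0.561 and 0.532 in hypoxic DM. All 4 hypoxic libraries lay below all 4 normoxic ones, and within normoxia DM lay above GM. Group means were 1.97 ± 0.449, 0.612 ± 0.0465, 3.66 ± 0.412 and 0.547 ± 0.0204 (SD, n = 2 each). Mean FPKM rose 1.86-fold in normoxic differentiation (log2 0.65 ± 0.13, SE; limma adjusted p = 0.00421) and was 6.69-fold lower in hypoxic than normoxic DM (-1.59 ± 0.13; adjusted p = 6.81e-05) and 3.22-fold lower in hypoxic than normoxic GM (-0.87 ± 0.13; adjusted p = 0.00258). In hypoxia, DM and GM gave -0.06 (adjusted p = 0.757; 95% interval -0.37 to 0.25). The change with differentiation was smaller in hypoxia than in normoxia (interaction -0.71 ± 0.19; adjusted p = 0.0167). Without hypoxic GM A the interaction was -0.68 (adjusted p = 0.0604) and without normoxic DM A -0.62 (adjusted p = 0.0546), so that call rests on those libraries. The gene passed the filter through its normoxic groups. Its fragments, 92 and 165, 46 and 39, 216 and 231, and 45 and 27 in the order of the groups above, were recovered within 0.000229 of whole numbers and gave a ratio of 6.59 (95% exact interval 5.13 to 8.57) between normoxic and hypoxic DM. The interval pools the libraries of each group and covers counting error only, not the spread between replicates.

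**Figure D1:**
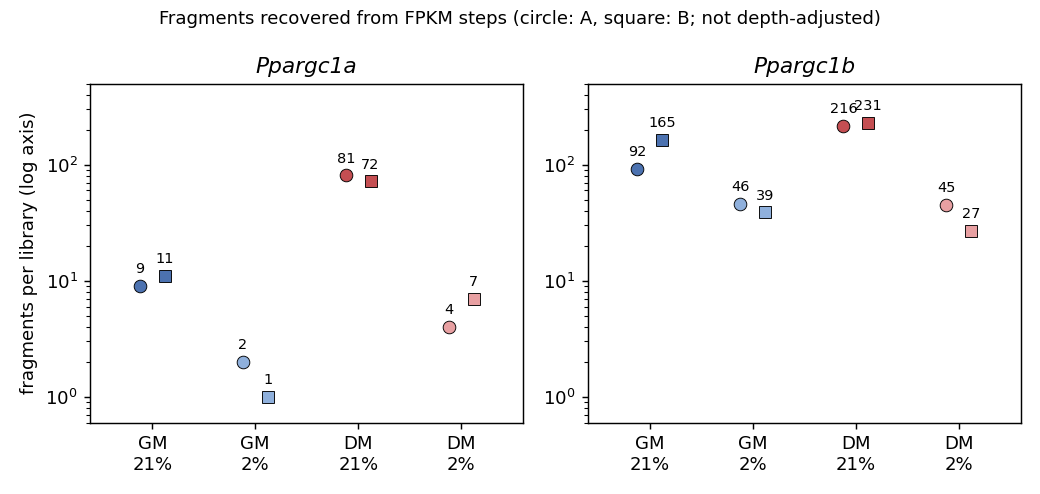
Fragments recovered for Ppargc1a and Ppargc1b in each library (log axis, not adjusted for depth; circle A, square B), for the 4 groups. Ppargc1a had 81 and 72 fragments in normoxic DM and 1 to 11 elsewhere, while Ppargc1b had 216 and 231 in normoxic DM and 27 to 46 in the hypoxic libraries.

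Pprc1 encodes PRC, a PGC-1-related coactivator known to be serum inducible. Its FPKM were 9.25 and 8.12 in normoxic GM, 8.81 and 9.23 in hypoxic GM, 15.0 and 13.9 in normoxic DM, and 7.50 and 12 in hypoxic DM. Normoxic DM lay above all other libraries, and the remaining 3 groups overlapped, with the hypoxic DM pair spanning both GM groups. Mean FPKM rose 1.67-fold in normoxic differentiation (0.68 ± 0.20; limma adjusted p = 0.0199), and the call was lost when either normoxic GM or either normoxic DM library was left out (adjusted p 0.0508 to 0.105). The fall in hypoxic DM (-0.55 ± 0.20; adjusted p = 0.0421) was lost in 10 of 18 alternatives, among them the fits that left out normoxic GM A or B, hypoxic GM A or B, normoxic DM A or B, or hypoxic DM A. Hypoxia in GM gave 0.05 (95% interval -0.42 to 0.52; adjusted p = 0.861). In hypoxia, DM and GM gave 0.07 (adjusted p = 0.807), which became 0.38 (adjusted p = 0.0296) without hypoxic DM A and -0.24 without hypoxic DM B. The interaction was -0.61 ± 0.28 (adjusted p = 0.107) and passed without hypoxic DM B (-0.91; adjusted p = 0.00213) and under both other scalings (adjusted p = 0.0145 and 0.0211).

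Of the nuclear receptors, Ppard is a fatty acid receptor that muscle uses for oxidative metabolism. It ran opposite to the coactivators in normoxic differentiation and with hypoxia in DM, which share the normoxic DM libraries. With hypoxia in GM its fitted difference had the same sign as that of Ppargc1b. Its FPKM were 25.5 and 22.9 in normoxic GM, 18.4 and 19.5 in hypoxic GM, 13.1 and 10.8 in normoxic DM, and 18.9 and 27.5 in hypoxic DM. Normoxic DM held the 2 lowest values, and hypoxic DM overlapped both GM groups. The gene was 2.02-fold lower in normoxic DM than in normoxic GM (-0.96 ± 0.18; limma adjusted p = 0.00312) and 1.94-fold higher in hypoxic than in normoxic DM (0.88 ± 0.18; adjusted p = 0.00467). The 2 differentiation effects differed (interaction 1.21 ± 0.25; adjusted p = 0.00708), and all 3 calls held in the alternatives tried, except that the 2 two-group differences are under 1 and were not called where a log2 change of at least 1 was required. Differentiation in hypoxia gave 0.26 (95% interval -0.18 to 0.69; adjusted p = 0.3), and 0.52 (adjusted p = 0.0201) without hypoxic DM A. Hypoxia in GM gave -0.33 (adjusted p = 0.182), which passed without hypoxic DM A (adjusted p = 0.0412) or B (adjusted p = 0.0382), with the same estimate.

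Esrra encodes the estrogen-related receptor alpha, the main docking partner of PGC-1 on respiratory genes. Its FPKM were 21.6 and 17.6 in normoxic GM, 13.3 and 14.1 in hypoxic GM, 13.7 and 12.4 in normoxic DM, and 12.1 and 18.8 in hypoxic DM. Normoxic GM was the highest group by its mean, but its lower library was below 1 hypoxic DM library. The fall in normoxic differentiation (-0.55 ± 0.20; adjusted p = 0.0467) was lost in 10 of 18 alternatives, including the fits that left out normoxic GM A or B, hypoxic GM A or B, or normoxic DM A or B. After median-of-ratios scaling it was -0.29 (adjusted p = 0.164). Hypoxia gave -0.48 in GM (adjusted p = 0.0991) and 0.20 in DM (adjusted p = 0.413), and the latter was 0.50 (adjusted p = 0.0182) without hypoxic DM A and -0.10 without hypoxic DM B. The value in GM passed without hypoxic DM A (adjusted p = 0.0134) or B (adjusted p = 0.0118). Differentiation in hypoxia gave 0.13 (adjusted p = 0.649), or 0.43 (adjusted p = 0.0416) without hypoxic DM A, and the interaction 0.67 ± 0.28 (adjusted p = 0.0834), or 0.97 (adjusted p = 0.00408) without hypoxic DM A. Pprc1, Esrra and Ppard were 1.6, 1.56 and 1.46 times as high in hypoxic DM B as in A, the pair that differed in proliferation markers, whose part in these values was not tested. Ppara, the receptor that drives hepatic fatty acid oxidation, was at 0.0680 to 0.153 FPKM in all 8 libraries, was not tested, and passed in no contrast when the filter was dropped (smallest adjusted p = 0.301).

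**Figure D2:**
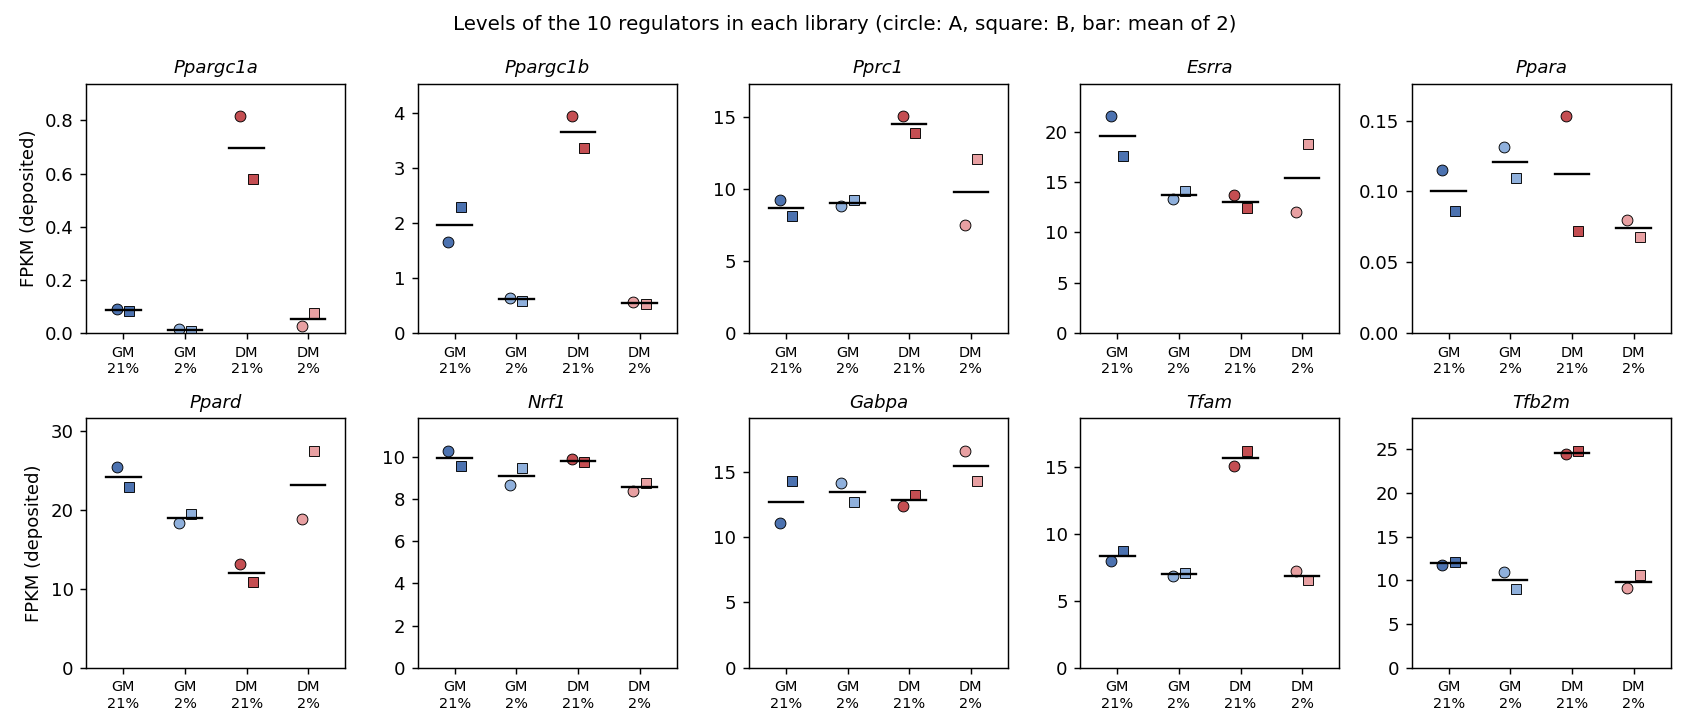
FPKM of the 10 regulators in each library (circle A, square B, bar the mean of 2; one panel per gene, its own axis). Tfam and Tfb2m are highest in the 2 normoxic DM libraries and Ppard is lowest there.

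Nrf1, the nuclear respiratory factor 1, is a DNA-binding factor for genes of respiration and should not be confused with Nfe2l1, which shares the alias. Its FPKM were 10.3 and 9.57 in normoxic GM, 8.68 and 9.49 in hypoxic GM, 9.90 and 9.75 in normoxic DM, and 8.40 and 8.74 in hypoxic DM. The whole range was 8.40 to 10.3, with overlap between hypoxic GM and hypoxic DM and between normoxic GM and normoxic DM. Gabpa, the DNA-binding subunit of GABP, was at 11.1 and 14.3, 14.2 and 12.7, 12.4 and 13.2, and 16.6 and 14.3 FPKM in the same order, and both hypoxic DM values lay above both values of hypoxic GM and of normoxic DM, while the other pairs of groups overlapped. The largest fitted difference was -0.18 for Nrf1 (hypoxia in DM, 95% interval -0.40 to 0.04; adjusted p = 0.128) and 0.25 for Gabpa (hypoxia in DM, -0.09 to 0.58; adjusted p = 0.158). After median-of-ratios scaling the Nrf1 difference was -0.37 and passed (adjusted p = 0.0125). Of all genes tested, 12.3% were called in none of the 4 two-group comparisons, as were these 2.

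Tfam encodes the high-mobility-group protein that packs mitochondrial DNA and bends its promoters, and Tfb2m the cofactor that lets the mitochondrial RNA polymerase open them. Tfam FPKM were 7.97 and 8.74 in normoxic GM, 6.86 and 7.08 in hypoxic GM, 15.0 and 16.2 in normoxic DM, and 7.20 and 6.52 in hypoxic DM. Both normoxic DM values lay above every other library, and the 2 hypoxic groups overlapped. Mean FPKM was 15.6 ± 0.788 (SD, n = 2) in normoxic DM against 8.35 ± 0.546 in normoxic GM, 6.97 ± 0.151 in hypoxic GM and 6.86 ± 0.477 in hypoxic DM. Tfam rose 1.87-fold in normoxic differentiation (0.83 ± 0.10; limma adjusted p = 0.000355) and was 2.27-fold lower in hypoxic than normoxic DM (-1.08 ± 0.10; adjusted p = 0.000107). In hypoxia DM and GM gave -0.02 (95% interval -0.26 to 0.21; adjusted p = 0.891), and the interaction was -0.85 ± 0.14 (adjusted p = 0.0025). Hypoxia in GM gave -0.23 (adjusted p = 0.105; 95% interval -0.46 to 0.01).

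Tfb2m FPKM were 11.8 and 12.1 in normoxic GM, 11 and 8.98 in hypoxic GM, 24.4 and 24.8 in normoxic DM, and 9.10 and 10.6 in hypoxic DM. Normoxic DM again lay above all other libraries and the 2 hypoxic groups overlapped. Means were 24.6 ± 0.276 (SD, n = 2) in normoxic DM, 11.9 ± 0.177 in normoxic GM, 9.99 ± 1.43 in hypoxic GM and 9.86 ± 1.08 in hypoxic DM. The rise in normoxia was 2.06-fold (0.99 ± 0.12; limma adjusted p = 0.000389), the difference of hypoxic from normoxic DM -1.24 ± 0.12 (2.5-fold lower; adjusted p = 0.000136), and the interaction -1 ± 0.17 (adjusted p = 0.00283). In hypoxia DM and GM gave -0.01 (95% interval -0.30 to 0.27; adjusted p = 0.942). The 2 genes ran together over the 8 libraries (Pearson r = 0.97 of log2(FPKM + 1), given with no test, since the libraries share groups and the pair was listed together). With 1 library left out at a time the calls of both genes held, and the interaction ranged over -0.91 to -0.79 for Tfam and -1.13 to -0.87 for Tfb2m.

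**Figure D3:**
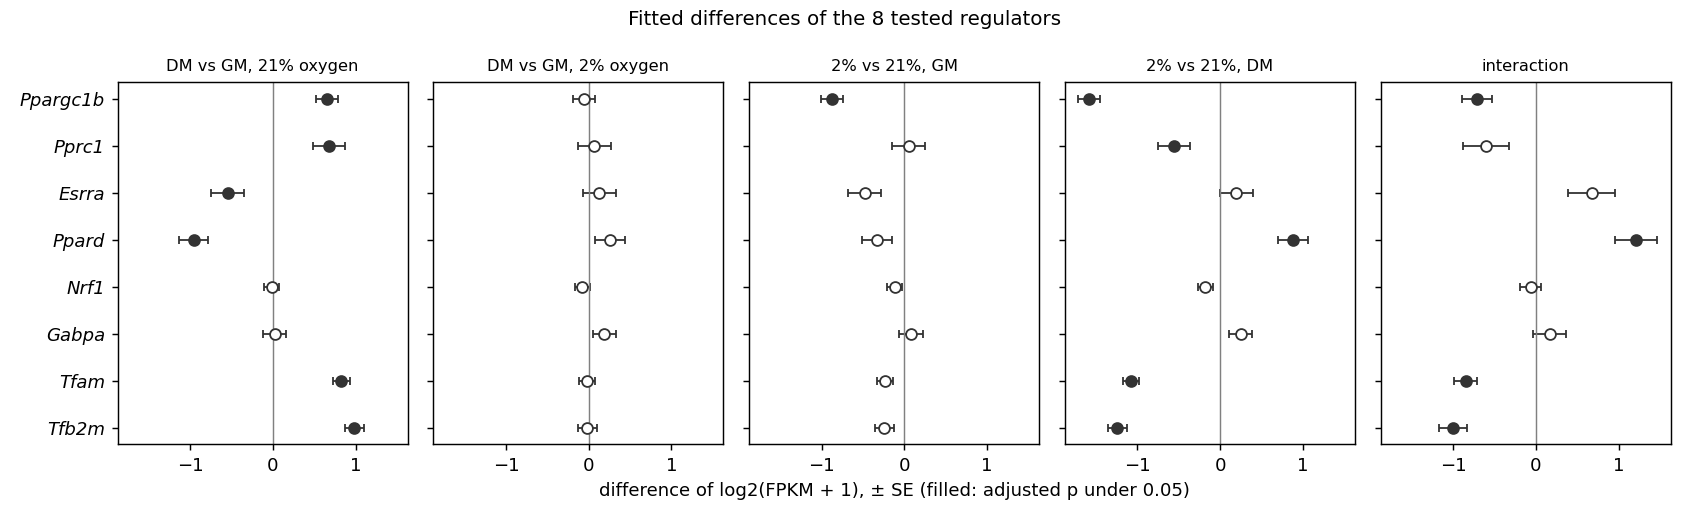
Fitted differences of log2(FPKM + 1) with SE for the 8 tested regulators in 5 contrasts (filled symbols: adjusted p under 0.05). Ppargc1b, Tfam and Tfb2m are positive in normoxic differentiation and negative for hypoxia in DM, and Ppard has the opposite signs.

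In counts, 6 of 8 tested regulators were called in normoxic differentiation, 4 higher (Ppargc1b, Pprc1, Tfam and Tfb2m) and 2 lower (Esrra and Ppard). Of all genes tested 66.5% were called in that contrast, 25.5% higher and 41% lower, and after median-of-ratios scaling the share of calls that were higher moved from 38.4% to 53.6% and the median difference of all genes from -0.20 to 0.03. The 2 groups' libraries did not overlap for the same 6 regulators, as for 87% of all genes. With hypoxia in DM 5 of 8 were called, 1 higher and 4 lower, against 65.2% of all genes (37.5% higher, 27.7% lower), and the share of higher calls moved from 57.5% to 46.5%. The libraries did not overlap for 7 of 8, as for 83.1% of all genes. With hypoxia in GM only Ppargc1b was called, against 41.4% of all genes (28% lower), and the share of higher calls moved from 32.6% to 43.4%, or 49.3% after upper-quartile scaling. The spread in this fit also draws on the DM libraries. When only the GM groups were fitted, Esrra (limma adjusted p = 0.0359) and Ppard (adjusted p = 0.0378) were called too, at the same estimates, among 5816 genes. The libraries did not overlap for 6 of 8, as for 77.2% of all genes. None of the 8 was called for differentiation in hypoxia, none at unadjusted p under 0.05 in limma and with no other tool run, against 40.9% of all genes. The libraries did not overlap for 2 of 8, Ppargc1b and Gabpa, as for 70.3% of all genes. For the interaction 4 were called, 1 higher and 3 lower, against 54.1% (35.4% higher, 18.7% lower), and the share of higher calls moved from 65.5% to 47.3%. The pattern of Ppargc1b, Tfam and Tfb2m (higher on normoxic differentiation, lower with hypoxia in DM, negative interaction) was that of 1726 genes, 13.9% of those tested. These 3 comparisons share the normoxic DM libraries. Only 8 of 10 regulators passed the filter and Ppargc1b did so through its normoxic groups, so the counts describe those 8.

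The machinery that acts with Tfam and Tfb2m on mitochondrial DNA was mixed. Of 22 genes for mitochondrial transcription and replication, 9 rose and 7 fell in normoxic differentiation (median log2 difference 0.13, all genes -0.20). With hypoxia in DM 6 rose and 7 fell (median -0.00, all genes 0.15), and 1 rose and 7 fell in the interaction. As shares of the 22, these were 40.9% and 31.8%, 27.3% and 31.8%, and 4.55% and 31.8%. The shares of all genes tested were 25.5% and 41%, 37.5% and 27.7%, and 35.4% and 18.7%. Slc25a33, a pyrimidine nucleotide carrier of the inner membrane, was at 1.63 and 1.83 FPKM in normoxic GM, 3.07 and 2.94 in hypoxic GM, 16.8 and 17.1 in normoxic DM, and 2.65 and 3.95 in hypoxic DM. It stood clear of the other libraries in normoxic DM (2.72; limma adjusted p = 1.39e-05) and was lower in hypoxic DM (-2.08; adjusted p = 4.06e-05). Tefm, the mitochondrial transcription elongation factor, was at 12.5 and 14.4 FPKM in normoxic DM and 4.69 to 6.73 elsewhere (hypoxia in DM -1.06; adjusted p = 0.000683). Lonp1, the matrix protease that degrades Tfam, was lowest in normoxic GM. Its FPKM were 36.6 and 35.4 in normoxic GM, 109 and 107 in hypoxic GM, 107 and 107 in normoxic DM, and 153 and 139 in hypoxic DM. It rose with differentiation in normoxia (1.54; adjusted p = 6.28e-06) and with hypoxia in GM (1.56; adjusted p = 4.05e-05).

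Among the targets of the pathway, most subunits of the respiratory chain rose with differentiation at both oxygen levels and fell with hypoxia in both media. Of 74 nuclear subunits of oxidative phosphorylation, 53 rose and 6 fell in normoxic differentiation (median 0.47, all genes -0.20) and 63 rose and 2 fell in hypoxic differentiation (median 0.63, all genes 0.07), where no tested regulator was called, or 3 (Pprc1, Esrra and Ppard) without hypoxic DM A. With hypoxia, 1 rose and 69 fell in GM (median -0.77, all genes -0.14) and 4 rose and 59 fell in DM (median -0.70, all genes 0.15). Of all genes tested, 25.5% rose and 41% fell in normoxic differentiation, and 23.3% and 17.6% in hypoxic differentiation. With hypoxia the shares of all genes were 13.5% and 28% in GM and 37.5% and 27.7% in DM. Uqcrq, a complex III subunit, was at 183 and 165 FPKM in normoxic GM, 117 and 130 in hypoxic GM, 394 and 405 in hypoxic DM and higher still in normoxic DM (differentiation in normoxia 2.42; limma adjusted p = 4.13e-06; in hypoxia 1.69; adjusted p = 0.000227). Cox6a1, a complex IV subunit, was 1 of the 4 that rose with hypoxia in DM, at 195 and 191 FPKM in normoxic DM and 600 and 659 in hypoxic DM (1.70; adjusted p = 2.96e-05). The same gene fell in normoxic differentiation (-1.38, adjusted p = 7.79e-05) and rose in hypoxic differentiation (1.23, adjusted p = 0.000707). Of 21 tricarboxylic acid cycle and ERR target genes, 14 rose and 4 fell in normoxic differentiation, 16 rose and 2 fell in hypoxic differentiation, all 21 fell with hypoxia in GM and 18 fell with hypoxia in DM (medians 0.35, 0.49, -0.91 and -0.81, all genes -0.20, 0.07, -0.14 and 0.15). Dld, the E3 subunit of the pyruvate dehydrogenase complex, was at 167 and 173 FPKM in normoxic DM and 22.4 to 46.1 elsewhere. Some genes, such as the Sdh subunits, are in both lists. The direction of the interaction median of these lists, 0.09 and 0.16, reversed under both other scalings (-0.23 and -0.16 after median-of-ratios, -0.13 and -0.06 after upper-quartile scaling), so none is given for it.

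Of 25 genes of mitochondrial protein import, 13 rose and 2 fell in normoxic differentiation, 16 rose and none fell in hypoxic differentiation, 1 rose and 17 fell with hypoxia in GM, and 4 rose and 14 fell with hypoxia in DM. The medians were 0.34, 0.52, -0.44 and -0.35, against -0.20, 0.07, -0.14 and 0.15 for all genes. As shares of the 25, the counts were 52% and 8%, 64% and 0%, 4% and 68%, and 16% and 56%. The shares of all genes were 25.5% and 41%, 23.3% and 17.6%, 13.5% and 28%, and 37.5% and 27.7%. Timm8a1, a small chaperone of the intermembrane space, was at 67 and 66.3 FPKM in normoxic DM and 9.4 to 12.7 elsewhere. Hspa9, the matrix Hsp70, was lowest in normoxic GM (115 and 123 FPKM) and highest in normoxic DM (546 and 563), and it was the 1 gene of the list that rose with hypoxia in GM (1.13; limma adjusted p = 0.00125). Of 76 mitochondrial ribosomal proteins, 31 rose and 13 fell in normoxic differentiation (median 0.19, all genes -0.20). In hypoxic differentiation 45 rose and 1 fell (median 0.45, all genes 0.07). With hypoxia in DM 13 rose and 38 fell (median -0.27, all genes 0.15). With hypoxia in GM none rose and 50 fell (median -0.43, all genes -0.14). That last count was 32 after upper-quartile scaling and 27 to 30 when normoxic GM A, hypoxic GM A or hypoxic GM B was left out, and the 46 called in hypoxic differentiation were 26 or 27 without hypoxic GM A or B.

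**Figure D4:**
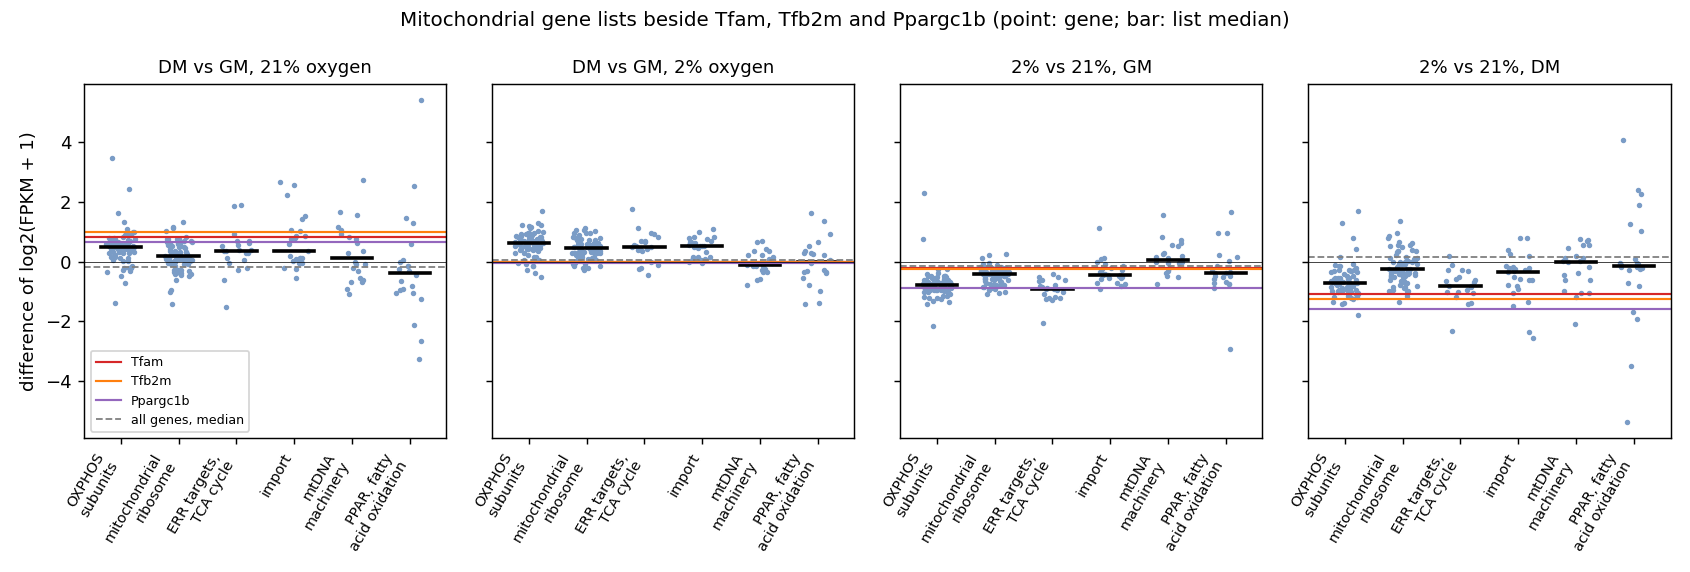
Differences of log2(FPKM + 1) for each gene of the mitochondrial lists (points) with the list median (bar), beside Tfam, Tfb2m and Ppargc1b (lines) and the median of all genes (dashed). In hypoxic differentiation the subunits of oxidative phosphorylation have a median of 0.63 while Tfam, Tfb2m and Ppargc1b lie between -0.06 and -0.01.

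Genes of PPAR response and fatty acid oxidation moved in both directions. Of 22 tested (25 listed), 5 rose and 12 fell in normoxic differentiation, 2 rose and 12 fell with hypoxia in GM, and 6 rose and 7 fell with hypoxia in DM. As shares of the 22, these were 22.7% and 54.5%, 9.09% and 54.5%, and 27.3% and 31.8%, against 25.5% and 41%, 13.5% and 28%, and 37.5% and 27.7% of all genes. Angptl4, a secreted inhibitor of lipoprotein lipase and a known PPARδ and hypoxia target, was at 18.5 and 16.2 FPKM in normoxic GM, 54.1 and 60.8 in hypoxic GM, 7.58 and 8.20 in normoxic DM, and 144 and 152 in hypoxic DM (hypoxia in DM 4.07; limma adjusted p = 3.53e-07). Its groups did not overlap. Fabp3, the muscle fatty acid binding protein, was at 88.4 and 94.6 FPKM in normoxic DM and under 2 FPKM elsewhere. Cpt1a, the carnitine palmitoyltransferase, was at 66.4 and 69.8 FPKM in normoxic GM and 6.20 and 6.29 in normoxic DM (-3.25; adjusted p = 2.85e-06).

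Among 40 tested partners and upstream regulators of the coactivators (43 listed), 10 rose and 17 fell in normoxic differentiation and 15 rose and 8 fell with hypoxia in DM. These shares, 25% and 42.5% and then 37.5% and 20%, lay near those of all genes, 25.5% and 41% and then 37.5% and 27.7%. The 27 calls of the first comparison were 17 without normoxic DM A, and the 23 of the second were 14 without normoxic DM B. Prkag3, the muscle γ3 subunit of AMPK, was at 53.1 and 54.1 FPKM in normoxic DM and under 1 FPKM elsewhere. Myc was at 74 and 71.2 FPKM in normoxic DM, 13.6 and 20.7 in hypoxic DM and 21.8 to 28.6 in GM, and Mxi1, its antagonist, rose with hypoxia in both media (1.99; limma adjusted p = 0.000188 in GM, and 2.5; adjusted p = 1.43e-05 in DM). Lpin1, a phosphatidate phosphatase that also coactivates PPARα with PGC-1α, was at 15.9 and 27.9 FPKM in hypoxic DM and 2.27 to 5.12 elsewhere. Of the 9 tested nuclear receptor and ETS partners, 1 rose and 4 fell in normoxic differentiation (median -0.33, all genes -0.20). These shares were 11.1% and 44.4%, against 25.5% and 41% of all genes. Rxra, the common partner of PPARs, fell (-1.63; adjusted p = 1.92e-05), and Nfe2l1 rose (2.61; adjusted p = 2.55e-06) from 66.3 and 59.4 to 396 and 383 FPKM. In hypoxic differentiation 1 of the 9 rose and 4 fell (median -0.33, all genes 0.07). Of all genes 23.3% rose and 17.6% fell there.

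By the likeness rule, the genes whose log2(FPKM + 1) over 8 libraries was most like that of Ppargc1b were Lpar4 (Pearson r = 0.99), Fitm1 (0.99) and Set (0.99), and those most like Pprc1 were Tatdn2 (0.99), Vars (0.98) and Ipo13 (0.98). These correlations carry no p, since the 8 points share 4 groups. In the hypoxic libraries Lpar4 was at 0.287 to 0.468 FPKM and Fitm1 at 0 to 0.0726, so both passed the filter through normoxic groups.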

How the data were processed

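RNA-seq libraries of C2C12 cells were made from Trizol-extracted RNA by a stranded total RNA protocol, per the labels' protocols. The deposited values are gene-level FPKM. The submitters' processing notes name STAR 2.5.1b, Cufflinks 2.2.1 and the mm9 build, and the gene annotation and the use of strand in counting are not given in the sources used here. FPKM keeps no read counts, so no count model was used. Fragments of Ppargc1a and Ppargc1b were recovered from whole-fragment steps in the FPKM.

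Values were tested as log2(FPKM + 1) with limma 3.58.1 in R 4.3.3, with an intensity trend, all 8 libraries and 4 group means (4 residual degrees of freedom). Genes whose mean reached 1 FPKM in any group were kept, 12389 of 24043. Benjamini-Hochberg adjustment ran over all of them in each of 5 contrasts, and 0.05 was the threshold. All 10 regulators are named. From each list, up to 4 genes per contrast are named, those with the largest called change among genes that reached a mean of 5 FPKM in their highest group and whose libraries did not overlap between the groups compared (interaction: same sign from the A and from the B libraries). Genes most like Ppargc1b and Pprc1 were ranked by Pearson r. The members and lists were chosen with earlier results of these data known. The fit was also run on simulated data with few changed genes, all in normoxic DM, and the same spread in all groups. These data differ in both respects, so the simulation does not show how well the p-values hold here. Alternatives changed the filter, pseudocount, scaling, weights, samples fitted, replicate block and single libraries. Promoter windows came from RefSeq tables on GRCm38.p6. Genes encoded in mitochondrial DNA are not analysed here.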

Additional observations from a re-analysis of the deposited data

Results flagged for a closer look

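For 4 regulators the effect of differentiation differed between the oxygen levels by the interaction term in limma (adjusted p under 0.05 after Benjamini-Hochberg adjustment over all genes, 2 libraries per group). Tfam had an interaction of -0.85 and Tfb2m of -1 on the log2(FPKM + 1) scale: both rose in normoxia and had fitted changes of -0.02 and -0.01 in hypoxia. Ppargc1b had -0.71, from 0.65 in normoxia to -0.06 in hypoxia, and its call was lost in 2 of 16 alternatives. Ppard had 1.21, from -0.96 in normoxia to 0.26 in hypoxia. Of all genes tested, 54.1% were called for the same term, so 4 of 8 tested regulators lies near the share of all genes.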

How the results depend on the processing

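Of 707 values of the 8 tested regulators under alternatives, 645 kept their direction and side of the threshold, 26 lost the call, 17 gained one and 19 changed sign, all 19 without a call. The calls of Tfam, Tfb2m and Ppard in normoxic differentiation, hypoxia in DM and the interaction held in the alternatives tried other than the requirement of a log2 change of at least 1, as did the 3 two-group calls of Ppargc1b where it passed the filter. With 2 libraries per group the spread is poorly known, and a lone sample left in a group is assumed to vary like the others.

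The 1 regulator called with hypoxia in GM became 0 with a filter of 5 FPKM, 2 with array quality weights, 3 with only the groups compared and 0 when a log2 change of at least 1 was required. That requirement left 0 regulators in normoxic differentiation, 3 with hypoxia in DM and 1 in the interaction, and 3542, 925, 1268, 3420 and 3410 genes in normoxic differentiation, hypoxic differentiation, hypoxia in GM, hypoxia in DM and the interaction. Fitting only the groups compared left 2867 genes in hypoxic differentiation. With 1 library left out, regulators called ranged over 4 to 6, 0 to 3, 1 to 3, 4 to 5 and 3 to 5 in the same order, and genes over 6352 to 9292, 2501 to 6529, 2997 to 6844, 6370 to 8726 and 5147 to 8066.

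Sign changes were as follows. After median-of-ratios scaling, Nrf1 was 0.24 in normoxic differentiation and Gabpa -0.13 in the interaction. After upper-quartile scaling, Nrf1 was 0.11 there and 0.0397 with hypoxia in GM, Pprc1 -0.0147 in hypoxic differentiation and Gabpa -0.043 in the interaction. With 1 library left out, the range in normoxic differentiation was -0.0596 to 0.0351 for Nrf1 and -0.15 to 0.1928 for Gabpa. In hypoxic differentiation it was -0.237 to 0.3795 for Pprc1, -0.1708 to 0.427 for Esrra, -0.0053 to 0.5152 for Ppard, -0.083 to 0.0409 for Tfam and -0.1474 to 0.1187 for Tfb2m. With hypoxia in GM it was -0.0337 to 0.1354 for Pprc1 and -0.0899 to 0.2529 for Gabpa, with hypoxia in DM -0.1019 to 0.4959 for Esrra, and in the interaction -0.0036 to 0.3392 for Gabpa. The low ends of Pprc1, Esrra and Ppard in hypoxic differentiation were without hypoxic DM B and the high ends without hypoxic DM A. The cause was not tested.

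Deviations of the A libraries from their group means correlated between -0.166 and 0.042 across groups. No strong shared difference of A from B was seen, but this cannot show whether libraries of the same letter were made together. With a replicate block, 5, 0, 1, 4 and 4 regulators were called in the 5 contrasts in the order above, with 7931, 4453, 4634, 7802 and 6273 genes; Esrra in normoxic differentiation (adjusted p = 0.0672) and Pprc1 with hypoxia in DM (adjusted p = 0.0575) were not called.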

Other observations

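Several low genes tied to the coactivators were seen mainly in normoxic DM, and were chosen after their values were seen. Perm1, a muscle regulator that works with PGC-1 and estrogen-related receptors, was at 0.243 and 0.498 FPKM in normoxic DM, at 0.0133 in hypoxic GM A and listed at 0 in the other 5 libraries. Esrrg, the estrogen-related receptor gamma, was at 0.347 and 0.336 FPKM in normoxic DM and at most 0.0188 elsewhere. Cd36, a fatty acid transporter, was at 0.699 and 0.691 FPKM in normoxic DM and at most 0.0453 elsewhere. None reached the filter of 1 FPKM, so none was tested. Tfb1m, the methyltransferase related to Tfb2m and also chosen after its values were seen, was at 4.34 and 3.86 FPKM in normoxic GM, 3.94 and 4.09 in hypoxic GM, 9.51 and 8.07 in normoxic DM, and 5.73 and 5.01 in hypoxic DM, with normoxic DM above all other libraries.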
